A study of Mus musculus with 6 samples.

Results

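The dystrophin-glycoprotein complex is described here by 7 genes in HL-1, a cell line from mouse atrial cardiomyocytes, after transfection with an LNA gapmer against Malat1. The genes were chosen by name from a list of 8 (Dmd, Utrn, Dag1, Sgca, Sgcb, Sgcd, Sspn, and Dtna), of which 7 have a row among the 21269 genes of the deposited table. Sgcd was not analysed here. RNA sequencing gave 3 libraries of LNA Control and 3 of LNA Malat1. Gapmers are DNA oligonucleotides with locked ends. They bind a matching RNA, which RNase H then cuts. In both groups the HL-1 cells were grown in Claycomb medium with norepinephrine, seeded 24 hours before transfection with 50 nM of gapmer and RNAimax, and collected 48 hours after it. HL-1 is 1 immortal line without the load, the matrix, or the other cell types of a heart, and the sequence of neither gapmer was used here.

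Dystrophin is a long rod-shaped protein under the plasma membrane of muscle cells. It holds the actin cytoskeleton at one end and, at the other, the membrane protein dystroglycan, which binds laminin outside the cell. The sarcoglycans and sarcospan form a side complex in the membrane that holds dystroglycan and dystrophin together, and dystrobrevin and the syntrophins tie signaling proteins to the complex. Loss of dystrophin or of a sarcoglycan causes muscular dystrophy, often with cardiomyopathy, and utrophin is the close relative of dystrophin that can take its place.

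Of the 7 genes, Sgcb was called lower and Sgca was called higher after LNA Malat1, whereas Dmd, Utrn, Dag1, Sspn, and Dtna were not called. Sgcb (beta-sarcoglycan) fell to 56.0% of its level in LNA Control, and Sgca (alpha-sarcoglycan), at few reads, rose to 189%. Calls required a limma adjusted p no higher than 0.05 and a 1.5-fold difference. The fit used log2(normalized count + 1) of all 15650 genes whose normalized counts averaged 5 or more. All 7 genes passed this filter. Among all genes tested, 10.9% were called in either direction, 8% higher and 2.92% lower (1252 and 457 genes, or 748 and 718 after quantile normalization), so a single call each way among 7 genes is no result about the complex as a whole. By the adjusted p alone, 1 gene was higher and 2 were lower, or 3 of 7, beside 28.3% of all genes tested. The median log2 fold change was -0.05 over the 7 genes and 0.02 over all genes tested.

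The targeted RNA was lower in each LNA Malat1 library. Malat1 (ENSMUSG00000092341, mm10 chr19:5795690-5802672, minus strand) gave 5051, 5197, and 4369 normalized counts with the control gapmer (replicates 1, 2, and 3, the order used throughout) and 2833, 2792, and 2732 with the Malat1 gapmer. Its mean dropped to 57.2% of control. The log2 fold change was -0.80 ± 0.07 (SE) with limma adjusted p = 7.46e-06, and the larger part of the RNA counted thus remained. The sum of normalized counts ran from 4758777 to 4921406, from between 4511897 and 5593823 reads on genes as recovered from the steps that rounding left in the values. LNA Malat1 replicates 1 and 3 differed by less than the sampling noise, with a chi-square per gene of 0.95 (14522 genes). Replicates 1 and 2 had 1.01, not beyond that noise either (chi-square test p = 0.15), and replicates 2 and 3 had 1.16. Each mean ± SD of normalized counts or of levels takes replicates 1 and 3 as 1 sample. It thus has n = 3 for LNA Control and n = 2 for LNA Malat1, which may still overstate the separate samples. The ratios within a library are given over all 3 libraries of each group. Limma was fitted to all 6 libraries, and the fit with LNA Malat1 replicates 1 and 3 as 1 sample is given where it changes a call. No source states separate cultures, so p-values measure the spread between these libraries only, which may be technical. The LNA Control libraries stood farther apart, at 1.77 to 4.18 per gene. Malat1 shares 453 exonic bases with Gm37376 on the other strand.

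The labelled cell type was checked by its markers. Tnnt2, the cardiac troponin T gene, had 647 to 663 normalized counts in LNA Control and 710 to 746 in LNA Malat1, and Actc1, the cardiac actin gene, had 409 to 475 over all libraries. The atrial connexin gene Gja5 was at 0 to 4, Myh6 was at 0 to 7, and none of the 8 atrial markers tested was called. Nppa and Sln were not analysed here. Skeletal muscle is the other tissue in which this complex is best known. Of its 10 listed markers, 2 were in the table, Myh3 and Pax7. Both were low, together at 2 to 6 in LNA Control and 3 to 12 in LNA Malat1. Myod1 and Myog were not analysed here. As all values come from bulk RNA, fewer cells that express a gene and less of its RNA per cell cannot be told apart.

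The promoters of the 2 called genes are shown because these sarcoglycan genes moved in opposite directions. RefSeq windows of 300 bases on GRCm38.p6 reach from 250 bases before a start site to 50 bases after it and were found for 6 of the 7 genes, with none matched for Dtna. Each is printed 5' to 3' on the strand of its gene, with capitals for the motifs searched on both strands. These motifs were the E-box CANNTG, the letters bound by MyoD and other bHLH factors, and the GC box GGGCGG, the letters bound by Sp1. The window of Sgcb is chr5:73647688-73647987 on the minus strand, and its start site lies 53 bases from the gene start in the table.
Sgcb: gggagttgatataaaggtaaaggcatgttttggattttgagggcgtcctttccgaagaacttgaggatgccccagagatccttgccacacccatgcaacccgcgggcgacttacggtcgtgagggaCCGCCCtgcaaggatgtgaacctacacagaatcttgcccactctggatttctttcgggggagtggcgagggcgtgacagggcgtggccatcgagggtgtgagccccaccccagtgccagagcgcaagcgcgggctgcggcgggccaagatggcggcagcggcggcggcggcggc
The window of Sgca is chr11:94976278-94976577 on the minus strand, at the gene start of the table.
Sgca: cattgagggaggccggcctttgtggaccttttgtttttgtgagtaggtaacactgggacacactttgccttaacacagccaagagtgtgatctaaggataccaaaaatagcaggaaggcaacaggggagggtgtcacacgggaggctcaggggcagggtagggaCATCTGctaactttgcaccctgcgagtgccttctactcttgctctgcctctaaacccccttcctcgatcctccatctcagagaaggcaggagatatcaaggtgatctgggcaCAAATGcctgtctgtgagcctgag
The Sgcb window had 24 CpG and a GC content of 62.7%, with 1 GC box that begins 124 bases before the start site and 0 E-boxes. The Sgca window had 4 CpG and 52.7% GC, with 0 GC boxes and 2 E-boxes that begin 86 bases before and 26 bases after the start site. The median of all 32851 RefSeq windows was 7 CpG, 72.3% of them held an E-box, and 35.7% held a GC box. The windows of Sgcb and Sgca lay on different sides of the median for CpG, and a motif match describes letters and not a bound site. Windows of members that were not called also lay on both sides. Dag1 had 30 and 47 CpG, Utrn 2, Dmd 2 and 14, and Sspn 2 and 8. E-boxes and GC boxes occurred in these windows as well. Utrn had 7 E-boxes and 0 GC boxes, and Dmd had 3 and 0 E-boxes with 0 and 3 GC boxes. Dag1 had 1 and 1 E-boxes with 3 and 4 GC boxes, and Sspn had 0 and 1 E-boxes with 0 GC boxes. Any relation of the promoter letters to the changes was not tested.

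The first group by role is dystrophin and its relatives at the membrane's inner face. Dmd (ENSMUSG00000045103, chrX:82948870-85206141, plus strand) spans 2257 kb with 84 exon blocks and 14 annotated transcripts. It had 752, 970, and 1076 normalized counts with the control gapmer and 869, 856, and 942 with the Malat1 gapmer. All 3 LNA Malat1 libraries lay within the range of LNA Control. The means were 933 ± 165 (SD, n = 3) and 881 ± 35.0 (SD, n = 2). Their log2 fold change was -0.05 (95% interval -0.27 to 0.17, limma adjusted p = 0.726). LNA Control replicate 1 held the low end, and without it the log2 fold change was -0.20 (limma adjusted p = 0.0176), below the fold minimum. The counts do not separate the full-length from the shorter dystrophin transcripts.

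Utrn (ENSMUSG00000019820, chr10:12382188-12869365, minus strand) encodes utrophin, which binds the same partners as dystrophin and is the form found outside the mature muscle membrane. Its normalized counts were 2608, 2787, and 2701 with the control gapmer and 2672, 2657, and 2618 with the Malat1 gapmer, the smallest relative spread of the 7 genes in LNA Control. The groups overlapped, and the log2 fold change was -0.03 (95% interval -0.15 to 0.09, limma adjusted p = 0.758). Within a library, Utrn had 2.95 times the normalized count of Dmd in LNA Control and 2.98 times in LNA Malat1 (arithmetic means of the ratios of single libraries, not per length). On the log2 scale this ratio was 1.55 ± 0.23 (SD, n = 3) and 1.57 ± 0.09 (SD of 3 libraries), and its difference of 0.03 had p = 1 in a two-sided exact permutation test, in which 3 against 3 libraries cannot go below 0.1.

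Dtna (ENSMUSG00000024302, chr18:23415135-23659715, plus strand) encodes alpha-dystrobrevin, which binds dystrophin and the syntrophins. It had 354, 376, and 410 normalized counts with the control gapmer and 336, 322, and 370 with the Malat1 gapmer. The highest LNA Malat1 library lay above the lowest of LNA Control. The means of 380 ± 28.2 (SD, n = 3) and 338 ± 21.9 (SD, n = 2) gave a log2 fold change of -0.15 (95% interval -0.30 to 0.01, limma adjusted p = 0.14). Without LNA Control replicate 1 it was -0.20 (limma adjusted p = 0.0434).

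Dag1 is the one dystroglycan gene. Its product is cut into the alpha subunit, which carries the sugar chains that hold laminin, and the beta subunit, which spans the membrane. Dag1 (ENSMUSG00000039952, chr9:108204634-108263958, minus strand) had 2113, 1812, and 1680 normalized counts with the control gapmer and 1856, 1841, and 1862 with the Malat1 gapmer. The LNA Malat1 libraries lay close together inside the wider range of the controls. Dag1 had a log2 fold change of -0.01 (95% interval -0.17 to 0.16, limma adjusted p = 0.967).

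Both calls were of sarcoglycan genes. Sgcb (ENSMUSG00000029156, chr5:73632749-73647790, minus strand) is a gene of 6 exon blocks over 15.0 kb. Beta-sarcoglycan is one of the core subunits around which the sarcoglycan complex assembles. It had 448, 424, and 404 normalized counts with the control gapmer and 237, 239, and 238 with the Malat1 gapmer. The LNA Malat1 libraries all lay far below the lowest of LNA Control. The means were 425 ± 22.0 (SD, n = 3) and 238 ± 1.06 (SD, n = 2). The log2 fold change was -0.83 (SE 0.06, 95% interval -0.96 to -0.70, limma adjusted p = 1.13e-06), and it ranged from -0.87 to -0.80 when each library was left out in turn. The 3 LNA Malat1 values had an SD of 1.00, whereas counting alone would give 15.0, so their closeness is no measure of the error. Of the genes with a mean of 200 to under 500, 3.05% were called lower.

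Sgca (ENSMUSG00000001508, chr11:94962791-94976327, minus strand) encodes alpha-sarcoglycan, the subunit known from striated muscle. Its normalized counts were 14, 11, and 15 with the control gapmer and 29, 27, and 18 with the Malat1 gapmer. The groups did not overlap, although the lowest LNA Malat1 library was only 3 normalized counts above the highest LNA Control library. The means were 13.3 ± 2.08 (SD, n = 3) and 25.2 ± 2.47 (SD, n = 2), and the log2 fold change was 0.82 (SE 0.26, 95% interval 0.26 to 1.39, limma adjusted p = 0.0327). The call rested on 40 reads in LNA Control (95% Poisson interval 28.6 to 54.5, counting error only) and 77 in LNA Malat1 (60.8 to 96.2). It was lost without LNA Control replicate 2 (log2 fold change 0.70, limma adjusted p = 0.104), LNA Malat1 replicate 1 (0.70, limma adjusted p = 0.142), or LNA Malat1 replicate 2 (0.75, limma adjusted p = 0.12). Quantile normalization gave 0.49 (limma adjusted p = 0.182). Genes at this level leaned the same way, since 18.5% of those with a mean of 10 to under 20 were called higher, with a median log2 fold change of 0.32.

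Sspn (ENSMUSG00000030255, chr6:145931641-145965223, plus strand) encodes sarcospan, a small membrane protein bound to the sarcoglycans. It had 55, 62, and 66 normalized counts with the control gapmer and 43, 46, and 46 with the Malat1 gapmer. All 3 LNA Malat1 libraries lay below all LNA Control libraries. The means of 61.0 ± 5.57 (SD, n = 3) and 45.2 ± 1.06 (SD, n = 2) gave a log2 fold change of -0.43 (SE 0.14, 95% interval -0.73 to -0.13, limma adjusted p = 0.0363), short of the 1.5-fold minimum. The limma adjusted p was 0.0806 where LNA Malat1 replicates 1 and 3 entered as 1 sample, and it lay between 0.0763 and 0.11 without any 1 library other than LNA Control replicate 1. Groups did not overlap for 3 of the 7 genes, beside 41.3% of all genes tested, with 1 higher (20.5% of all) and 2 lower (20.8% of all). Sspn shares 69 exonic bases with Sspnos on the other strand, and whether reads were counted by strand is not given in the sources used here.

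**Figure D1:**
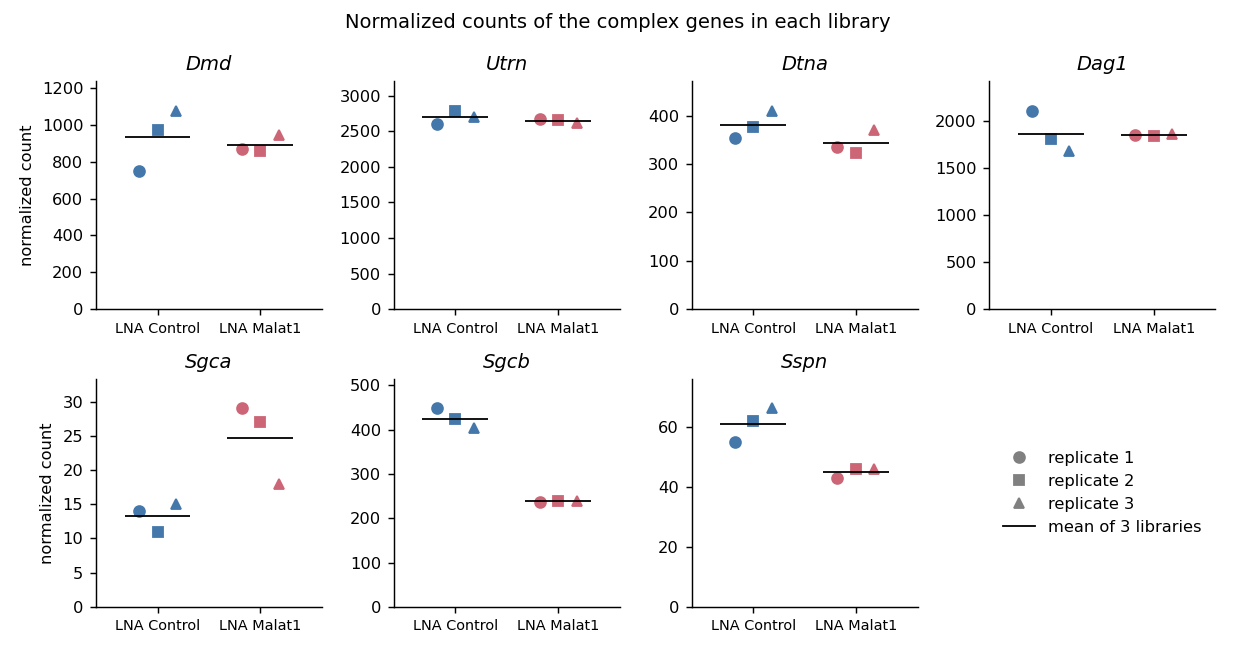
Normalized counts of the 7 complex genes in each library, each panel with its own vertical axis from 0, LNA Control in blue and LNA Malat1 in red, with the replicate number as the shape of the point and a line at the mean of 3 libraries. Sgcb and Sspn lie lower and Sgca higher in LNA Malat1 with no overlap, and in Dmd and Dag1 the LNA Control libraries are spread around the LNA Malat1 libraries.

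**Figure D2:**
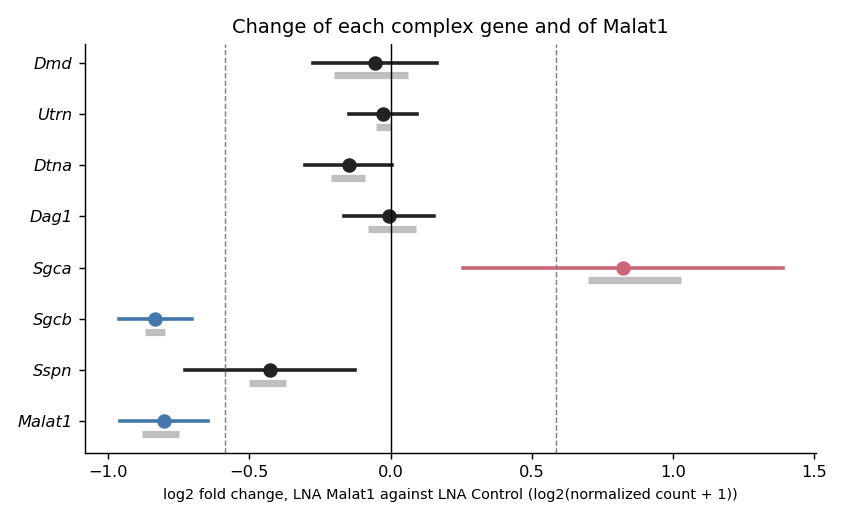
Log2 fold change of LNA Malat1 against LNA Control for the 7 complex genes and Malat1 on the horizontal axis. Points are the limma estimates with their 95% intervals, gray bars the range when each library was left out in turn, colors the called genes, and dashed lines the 1.5-fold minimum. The interval of Sgcb, from -0.96 to -0.70, lies wholly beyond the minimum, and that of Sgca, from 0.26 to 1.39, crosses it.

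The ratio of Sgcb to Dag1 within a library does not depend on how the libraries were scaled. In LNA Control it was 0.229 on the linear scale and -2.13 ± 0.10 (SD, n = 3) on the log2 scale, and in LNA Malat1 it was 0.129 and -2.96 ± 0.01 (SD of 3 libraries). The log2 difference of -0.83 equaled that of Sgcb alone, and the ratio was lower in 3 of 3 LNA Malat1 libraries than in any LNA Control library. A two-sided exact permutation test gave p = 0.1, the smallest it allows, and 0.3 adjusted over the 3 ratios compared. For Dmd to Dag1 the log2 ratio was -1.01 ± 0.43 (SD, n = 3) in LNA Control and -1.06 ± 0.07 in LNA Malat1 (SD of 3 libraries), with a difference of -0.05 (exact permutation p = 0.9). Without LNA Control replicate 1 that difference was -0.29.

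Per kb of exonic length, the scale on which levels of different genes can be compared, Dag1 had the highest level and Sgca the lowest in LNA Control. Normalized counts per kb were 294 ± 34.9 for Dag1, 158 ± 5.23 for Utrn, 105 ± 5.44 for Sgcb, 39.2 ± 6.94 for Dmd, 22.4 ± 1.67 for Dtna, 12.2 ± 1.11 for Sspn, and 7.68 ± 1.20 for Sgca (SD, n = 3). No neighbors in this order overlapped between libraries. In LNA Malat1, Sgcb had 58.8 normalized counts per kb and kept the third place, between Utrn at 155 and Dmd at 37.0. Sgca, at 10.4 to 16.7 in the 3 libraries, lay above Sspn, at 8.61 to 9.21, which reversed the order of these 2 genes. That order was not tested, and the lengths join all annotated exons, which understates a gene of which only a short transcript is made.

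**Figure D3:**
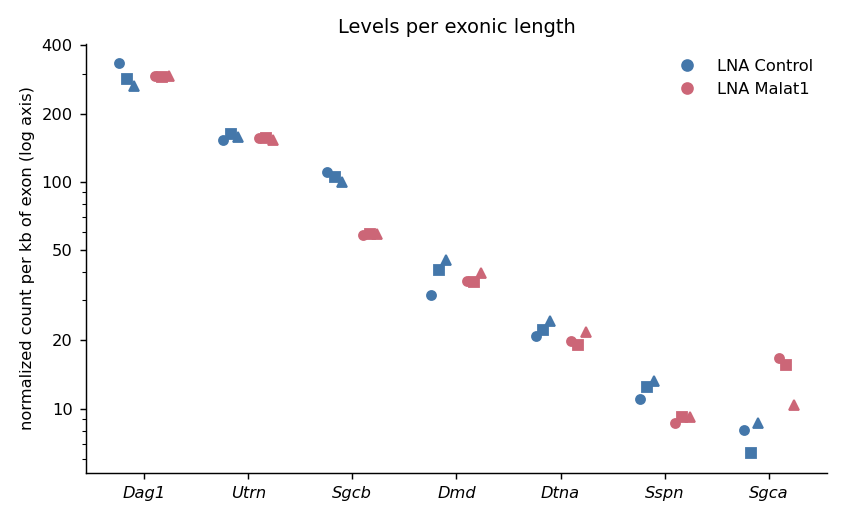
Normalized counts per kb of exonic length on a log axis for the 7 complex genes, ordered by their mean in LNA Control, with 1 point per library, LNA Control in blue, LNA Malat1 in red, and the shape giving replicates 1 (circle), 2 (square), and 3 (triangle). The levels run from 294 for Dag1 down to 7.68 for Sgca in LNA Control, and Sgcb moves from 105 to 58.8.

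The spread of Dmd and Dag1 in LNA Control was larger than counting gives. The coefficient of variation of the 3 LNA Control libraries was 17.7% for Dmd, where counting alone would give 3.26%, and 11.9% for Dag1, where it would give 2.32%. From replicate 3 to replicate 1 the genes went in opposite directions, with a log2 ratio of replicate 1 to 3 of -0.52 for Dmd and 0.33 for Dag1. Over 10488 genes with a mean of at least 50, this log2 ratio had a Pearson r of 0.46 and a Spearman rho of 0.446 with the GC content of the longest transcript, a correlation across genes of the same 2 libraries, which are not independent replicates. The longest transcript of Dmd has a GC content of 41.5% and that of Dag1 52.8%. Utrn, at 47.9%, had a log2 ratio of -0.05, Sspn, at 45.8%, -0.26, and Dtna, at 46.1%, -0.21. Sgcb, at 43.9%, had 0.15 and Sgca, at 56.7% and few reads, -0.09, both against the direction of the correlation. Dmd lay below the lower quartile of genes of like GC content (-0.24), and Dag1 above the upper quartile of its own (0.18). The part of GC content in the spread of these genes was not tested.

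**Figure D4:**
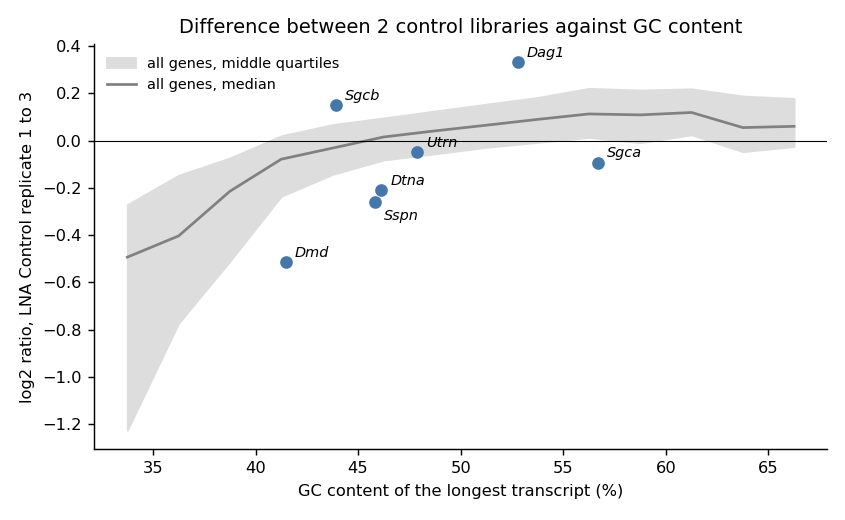
Log2 ratio of LNA Control replicate 1 to replicate 3 against the GC content (%) of the longest transcript, with the 7 complex genes as points and the median and middle quartiles of all genes with a mean of at least 50 in gray. Dmd lies at -0.52, Sgcb at 0.15, and Dag1, with a higher GC content than both, at 0.33.

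The genes around the complex were counted on lists drawn up by function. Each count below stands beside 8% called higher and 2.92% called lower among all genes tested. With so few genes per list, a few calls are no result about a list. Among the 6 of 8 cytoplasmic partners in the table, 0 were called higher and 1 lower, with a median log2 fold change of -0.03. Drp2, the dystrophin-related protein known from Schwann cells, had 36, 29, and 26 normalized counts with the control gapmer and 16, 18, and 18 with the Malat1 gapmer, and fell (log2 fold change -0.76, limma adjusted p = 0.0187). The call was lost without LNA Control replicate 1 (-0.64, limma adjusted p = 0.0646), without LNA Malat1 replicate 1 (-0.71, limma adjusted p = 0.0689), and where LNA Malat1 replicates 1 and 3 entered as 1 sample (limma adjusted p = 0.0505). Dtnb, the beta-dystrobrevin gene, had 458, 440, and 474 against 351, 326, and 364 (log2 fold change -0.40, limma adjusted p = 0.000404), under the fold minimum. Nos1, the neuronal nitric oxide synthase that syntrophin anchors, had 278, 260, and 247 against 312, 326, and 298 (0.25, limma adjusted p = 0.013), also under it. The syntrophin genes Sntb2 (0.00) and Sntg1 (0.39) had limma adjusted p-values of 0.969 and 0.138. The other sarcoglycan genes Sgce and Sgcz were not analysed here.

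Of the 10 genes for laminin subunits and other matrix ligands of dystroglycan, 9 were in the table and 7 were tested, with 1 called higher and 0 lower (median log2 fold change 0.02). Hspg2 (perlecan) and Lamc1 (laminin gamma 1) had the highest normalized counts, at 2379 to 3792 and 2007 to 2564 normalized counts over the 6 libraries, and neither passed the test. Bgn, which encodes the proteoglycan biglycan, had 7, 4, and 5 normalized counts with the control gapmer and 11, 14, and 10 with the Malat1 gapmer (log2 fold change 1.01, limma adjusted p = 0.0438). This call was lost when any library other than LNA Control replicate 1 was left out, as the limma adjusted p then ran from 0.0628 to 0.155, and where LNA Malat1 replicates 1 and 3 entered as 1 sample (limma adjusted p = 0.0858). Among all genes with a mean of 5 to under 10, as for Bgn, 16.1% were called higher. Lamb1 (laminin beta 1) had 153, 159, and 179 against 209, 220, and 200 (0.36, limma adjusted p = 0.00554), and Agrn (agrin) had 472, 392, and 345 against 324, 293, and 320 (-0.36, limma adjusted p = 0.014). Both stayed under the fold minimum. Lama2, whose laminin chain is the main one of muscle, had 0 to 3 normalized counts in every library, and Lama5 had 911 to 1324.

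The sugar chains that let alpha-dystroglycan hold laminin are built by a set of 18 listed enzymes and helpers, of which 15 were tested and 0 were called (median log2 fold change 0.04). By the limma adjusted p alone, without a fold minimum, 3 were higher and 3 lower, beside 14.3% and 14% of all genes tested. Pomt1 and Pomt2, which encode the enzymes that start the chain with mannose, had log2 fold changes of 0.27 and 0.31 (limma adjusted p = 0.0348 and 0.0258). Pomk, the kinase of that mannose, had 294, 268, and 265 normalized counts with the control gapmer and 212, 194, and 205 with the Malat1 gapmer (-0.43, limma adjusted p = 0.000593). Pomgnt1 was the third gene on the higher side (0.18, limma adjusted p = 0.0284). All 6 genes past the adjusted p lay below the fold minimum.

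Costameres, the sites where the complex and the integrins hold the sarcomere to the membrane, were followed by 21 genes. Of these 19 were tested, 2 were called higher and 1 lower, and the median log2 fold change was -0.11. Synm (synemin, an intermediate filament protein that binds desmin) had 340, 349, and 351 normalized counts with the control gapmer and 583, 533, and 500 with the Malat1 gapmer (log2 fold change 0.63, limma adjusted p = 1.44e-05), or 0.57 and under the minimum without LNA Malat1 replicate 1. Tln2 (talin 2, a link from integrin to actin in striated muscle) had 399, 414, and 379 against 236, 262, and 250 (-0.67, limma adjusted p = 1.03e-05). Tln1, the talin of most other cells, had 2446 to 2910 over the 6 libraries (log2 fold change 0.02, limma adjusted p = 0.837).

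The ankyrins hold dystrophin and dystroglycan at the costamere. Ank2 had 17, 16, and 20 normalized counts with the control gapmer and 36, 30, and 24 with the Malat1 gapmer (log2 fold change 0.72, limma adjusted p = 0.031). That call was lost without LNA Control replicate 2 (0.65), LNA Malat1 replicate 1 (0.58), or LNA Malat1 replicate 2 (0.71), with limma adjusted p-values of 0.0898, 0.144, and 0.0916, and also where LNA Malat1 replicates 1 and 3 entered as 1 sample (limma adjusted p = 0.0521). Among all genes with a mean of 20 to under 50, as for Ank2, 19.6% were called higher. Ank3 had 1742, 1645, and 1696 against 1151, 1145, and 1206 (-0.54, limma adjusted p = 1.13e-05), just under the fold minimum. The list had 1 call without LNA Malat1 replicate 1, and 4 without LNA Control replicate 3 or LNA Malat1 replicate 3, when the keratin gene Krt18 (2, 2, and 6 against 15, 10, and 4) was called too.

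Of 12 genes of membrane repair and caveolae, 10 were tested, 1 was called higher and 0 lower (median log2 fold change -0.11). Cav2 (caveolin 2) had 77, 94, and 104 normalized counts with the control gapmer and 160, 166, and 128 with the Malat1 gapmer (log2 fold change 0.72, limma adjusted p = 0.00129). Cav1 had 102, 80, and 88 against 118, 117, and 130 (0.44, limma adjusted p = 0.0105), under the fold minimum, and the muscle form Cav3 had 27, 38, and 22 against 22, 27, and 22 (-0.25, limma adjusted p = 0.446). The annexin genes Anxa1, Anxa2, and Anxa6, whose products patch torn membrane, had log2 fold changes of -0.23, -0.30, and -0.26 (limma adjusted p = 0.0191, 0.00151, and 0.00231), all under the minimum, while Anxa5 had -0.01 (limma adjusted p = 0.949). Ahnak, with the highest normalized counts of the list (4293 to 5360), stood at 0.18 (limma adjusted p = 0.0679).

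**Figure D5:**
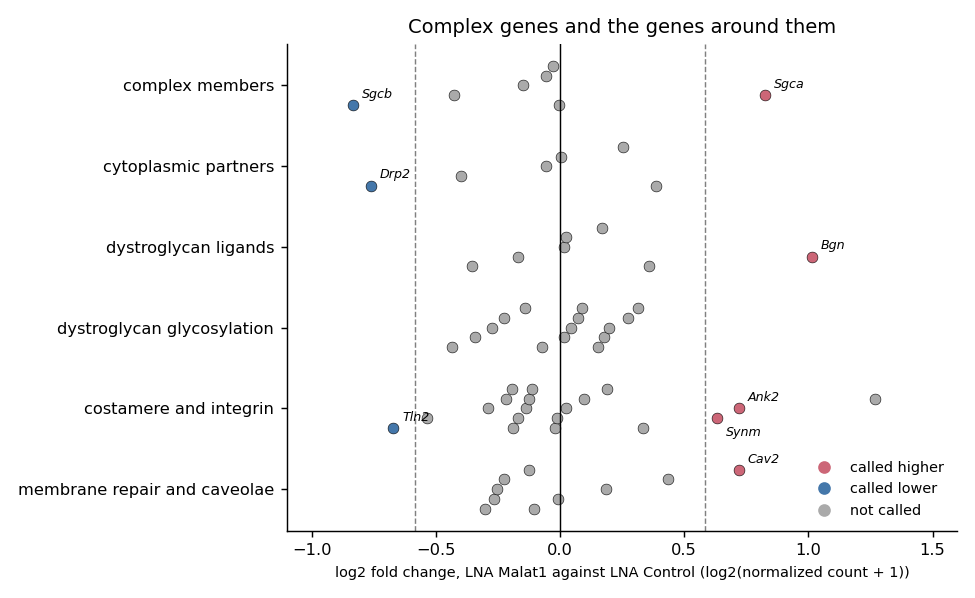
Log2 fold change of LNA Malat1 against LNA Control (horizontal axis) for each tested gene of the complex and of 5 lists around it (rows, with points set apart vertically for legibility). Called genes are colored and named, and dashed lines mark the 1.5-fold minimum. Of the 7 complex genes 2 are called, of the 19 costamere and integrin genes 3, and of the 15 glycosylation genes 0, beside 10.9% of all genes tested.

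The deposited table itself assigns 10 genes to the dystrophin-associated glycoprotein complex by GO term, 9 of which were tested. Of these, 1 was called higher and 1 lower, and both are the sarcoglycan genes above. Magee1, a dystrobrevin-binding member that the list of 8 does not hold, had 336, 306, and 323 normalized counts with the control gapmer and 217, 210, and 218 with the Malat1 gapmer (log2 fold change -0.58, limma adjusted p = 3.02e-05), just under the fold minimum.

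Neighboring genes and the genes most like each member were read from the same table, and the choice of neighbors to print was made with their values known. The protein-coding neighbors of Sgcb include Lrrc66, 223 bases away, and Spata18, 3589 bases away on the opposite strand. Lrrc66 had 0, 1, and 2 normalized counts with the control gapmer and 1, 1, and 0 with the Malat1 gapmer. Spata18 had 0, 1, and 0 against 5, 6, and 4, higher without overlap, as were 20.5% of all genes tested. Both genes had means under the filter and were not tested. Genes just above the filter, with a mean of 5 to under 10, had a median log2 fold change of 0.43. Dcun1d4, 71955 bases away, had 378, 354, and 389 normalized counts against 373, 435, and 425 (log2 fold change 0.13, limma adjusted p = 0.162). Usp46, a deubiquitinase gene 350663 bases away, had 584, 589, and 570 normalized counts with the control gapmer and 330, 331, and 360 with the Malat1 gapmer (-0.77, limma adjusted p = 1.25e-06) and was called lower. Next to Sgca, the collagen gene Col1a1, 9749 bases away, had 2486, 2171, and 1905 against 1922, 1794, and 1858 (log2 fold change -0.23, limma adjusted p = 0.0552), and Ppp1r9b had 847, 930, and 816 against 680, 666, and 683 (-0.35, limma adjusted p = 0.000678). Over the 6 libraries, the log2 normalized count of Sgcb had its highest Pearson r with Lypla1 (0.9997), Snd1 (0.9990), and Stk38 (0.9990) among 10490 genes with a mean of at least 50, and that of Sspn with Mllt3 (0.9966). Those of Dmd with Gm42675 (0.9878), of Dag1 with Pygo2 (0.9916), of Utrn with Zscan21 (0.9799), and of Dtna with Acp6 (0.9929) were lower. With 6 shared libraries in 2 groups, such r values describe the same samples and carry no test.

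Markers of other cell types moved with the groups in part. Both macrophage markers in the table, of 5 listed, were called higher, Csf1r at 13, 22, and 10 against 43, 39, and 23 and Cd68 at 23, 14, and 22 against 38, 33, and 31. Their sum was 32 to 36 in LNA Control and 54 to 81 in LNA Malat1, and Ptprc, which defines leukocytes, was not analysed here. Of the 5 smooth muscle markers, Lmod1 was called higher (17, 18, and 20 against 32, 45, and 47). Calls of this kind were common at the level of Csf1r, Cd68, and Lmod1. Among all genes with a mean of 20 to under 50, 19.6% were called higher, with a median log2 fold change of 0.23. Cnn1 (0.40, limma adjusted p = 0.00355) and Smtn (0.33, limma adjusted p = 0.00438) stayed under the fold minimum, and Acta2 (-0.05) and Myh11 (-0.60) did not pass the test (limma adjusted p = 0.638 and 0.153). That list summed to 1497 to 1700 in LNA Control and 1657 to 1741 in LNA Malat1. None of the 4 fibroblast markers tested was called, although Col3a1 was lower under the fold minimum (-0.33, limma adjusted p = 0.00136). With Col1a1 and Col3a1 at the front and Col1a2 at 0 to 1, the fibroblast markers in the table summed to 5304 to 5911 in LNA Control and 4683 to 4817 in LNA Malat1. Neither of the 2 endothelial markers tested was called, and that list summed to 22 to 31 and 36 to 37. Sgca, Bgn, and Ank2 were called higher at counts as low as those of Csf1r, Cd68, and Lmod1, and the part of such cells in their values was not tested.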

How the data were processed

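RNA of HL-1 cells (3 libraries of LNA Control, 3 of LNA Malat1, grouped by title) was sequenced with a stranded total RNA kit. The authors used Trimmomatic 0.39 for trimming, STAR 2.7.7a for alignment to mm10, featureCounts 1.6.5 for exonic reads per gene, and DESeq2 1.30.0 for tests. The deposited values are a score, namely counts normalized by 1 factor per library and rounded by the authors.

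Genes with a mean of at least 5 were tested two-sided in limma 3.58.1 (R 4.3.3) as log2(normalized count + 1), with eBayes allowing for an intensity trend and p adjusted by Benjamini-Hochberg, by a script tested on simulated data. A fold change on this scale understates that of low genes. Ratios were tested by exact permutation (scipy 1.17.1). Annotated lengths and GC content came from GENCODE M21, of which 21224 of 21269 identifiers matched. The members and lists were chosen with earlier results of these data known. Named genes were the members, Malat1, the called genes, the 6 largest changes and the gene with the highest mean of each list, and, for members with a mean of at least 50, the 3 genes most correlated with each; others were chosen after their values were seen. Alternatives were the replicate block, other pseudocounts, scalings, filters, and fold minima, voom on recovered reads, and leaving out each library. No column of values was left unmapped. The depth of each library is given with the results, and intervals on reads cover counting error only. The planned ratio of Sgcb to Sgcd was not computed. Some genes of the lists are counted but not reported singly here.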

Additional observations from a re-analysis of the deposited data

How the results depend on the processing

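The direction of Sgcb, Sgca, Sspn, Dtna, and Malat1 was kept under all alternatives, and Sgcb stayed called under all but a fold minimum of 2 (log2 fold change -0.83), with limma adjusted p from 6.8e-08 to 0.0369. Dmd (-0.20 to 0.06) and Dag1 (-0.08 to 0.09) took values on both sides of 0 when each library was left out and were never called. The fold minimum of 2 also removed the calls of Malat1 (-0.80) and Sgca (0.82), leaving 0 members higher and 0 lower. A test against a 1.5-fold change removed those of Malat1 (-0.80, limma adjusted p = 0.178) and Sgca (0.82, limma adjusted p = 1), and quantile normalization that of Sgca (0.49), each leaving 0 members higher, as did a mean of at least 50, which drops Sgca. With no fold minimum, Sspn (-0.43) joined Sgcb and 2 members were lower. Leaving out each library gave 0 to 1 members higher, 1 to 1 lower, and log2 fold changes of 0.70 to 1.03 for Sgca.

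Over all genes, 1252 were called higher, against 831 where LNA Malat1 replicates 1 and 3 entered as 1 sample, 742 at a fold minimum of 2, 317 at a mean of at least 50, 2231 with no fold minimum, 748 after quantile normalization, 192 in the test against 1.5-fold, and 810 to 1582 without 1 library. The 457 called lower became 99, 2195, 718, and 99 at a fold minimum of 2, with none, after quantile normalization, and in the test against 1.5-fold, and 406 to 475 without 1 library. The median log2 fold change of all genes stayed between -0.033 and 0.068.

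With no fold minimum, 28.3% of all genes tested pass in either direction, and the list counts at that setting stand beside this share. Of the lists, costamere and integrin (3 calls among 19 genes tested) had 0 at a fold minimum of 2 and in the test against 1.5-fold, 8 with no fold minimum, and 1 to 4 without 1 library. Cytoplasmic partners (1 call) had 0 with replicates 1 and 3 as 1 sample, at a fold minimum of 2, at a mean of at least 50, and in the test against 1.5-fold, 3 with no fold minimum, and 0 to 1 without 1 library. Dystroglycan ligands (1 call) had 0 with replicates 1 and 3 as 1 sample, at a mean of at least 50, with no filter, at a pseudocount of 0.1, after quantile normalization, and in the test against 1.5-fold, 3 with no fold minimum, and 0 to 1 without 1 library. Glycosylation had 6 with no fold minimum, and membrane repair and caveolae (1 call) had 0 at a fold minimum of 2 and in the test against 1.5-fold and 5 with no fold minimum. Beyond what each alternative does by construction, the cause was not tested.

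Deviations of same-numbered libraries from their group means had r of 0.086, 0.182, and 0.083 over 10490 genes. Libraries with different numbers were not compared, so these values cannot decide whether the replicate numbers pair the samples. With the replicate number as a block, Sgcb had -0.83 (limma adjusted p = 3.36e-06) and Sgca 0.82 (limma adjusted p = 0.0419), and the ligands list had 0 calls, as Bgn had a limma adjusted p of 0.0593. Depth limits Sgca most.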
